A study of Mus musculus with 4 samples.

Results

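The genes described here are 42 genes of the cell division cycle, listed by name and found by symbol among the 35275 gene identifiers of an RNA sequencing table from mouse lung tumours. No level of expression entered the rule, though earlier results of these data were known when the genes were listed. Of the 42, 13 act in DNA replication, 23 act in mitosis, and 6 (the E cyclins and 4 transcription factors) were counted on neither side. Tumours came from Balb/c mice injected 2 or 4 times with the lung carcinogen vinyl carbamate (16 mg/kg). They were dissected 40 to 44 weeks after the carcinogen was started, and 3 to 4 tumours were pooled for each sample. The groups were wild type (Nrf2 +/+, 2 libraries) and Nrf2 knockout (Nrf2 -/-, 2 libraries), and all mice of both groups had received the carcinogen. How many doses, weeks and tumours stand behind each sample is not in the labels, nor is whether the knockout was limited to a cell type.

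Cells that divide copy their DNA in S phase and then separate the copies in mitosis. Loading factors place the MCM helicase ring on replication origins, and the clamp PCNA and the enzymes of nucleotide supply then serve the moving forks. Genes for this first task are switched on by E2F factors as cells leave G1, while genes for mitosis are switched on later, by complexes that hold B-MYB (Mybl2) and FOXM1. The RNAs of both sets are low in resting lung and are widely read as a sign of how many cells of a tumour are in cycle. The comparison asked whether tumours without Nrf2, a transcription factor best known for antioxidant and detoxifying genes, differed in these RNAs. In bulk tumour RNA, fewer dividing cells and less RNA of these genes per cell cannot be told apart.

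The values are FPKM, which scale the reads of a gene by its length and by the library total. The totals they imply were 21.66 and 21.22 M reads (1 M is 1e6) in wild type 1 and 2, and 17.98 and 16.89 M in knockout 1 and 2. Nfe2l2, which encodes Nrf2, checked the labels: it was at 96.3 and 87.9 FPKM in wild type 1 and 2 and at 3.66 and 2.96 FPKM in knockout 1 and 2. Its log2 fold change was -4.44 ± 0.13 (SE, limma adjusted p = 0.000378). A list of 10 markers of alveolar type 2 cells and tumour epithelium, the labelled tissue, summed to between 102000 and 117000 FPKM in the 4 libraries. Markers of blood and stromal cells were not even between the genotypes. For T cells the sum was 21.9 and 20.7 FPKM in wild type 1 and 2 and 45.7 and 49.2 FPKM in knockout 1 and 2, and all 8 tested markers of 10 lay higher in both knockout libraries. The sum of neutrophil markers was 36.2 and 38.7 FPKM in wild type, against 122 and 135 FPKM in knockout, with 7 of 8 higher in both knockout libraries. Over all genes tested, 22.7% lay higher in both. Of the 8 neutrophil markers, 4 had a limma adjusted p under 0.05 (lowest 0.0108), against 0.114% of all genes tested. Erythroid markers were at 247 and 490 FPKM in wild type, against 1190 and 1090 FPKM in knockout. B and plasma cell markers were at 52.3 and 50.5 against 69.8 and 77.8 FPKM in wild type and knockout, and macrophage markers at 199 and 170 against 176 and 163 FPKM. Endothelial markers (154 and 80.8 against 128 and 206 FPKM) and fibroblast markers (351 and 239 against 344 and 557 FPKM) were lowest in wild type 2. Genes listed as markers of germinal centre B cells, which divide fast, summed to 36.5 and 37.6 against 34.8 and 45.8 FPKM. That sum is not shown to come from such cells. Of these 8 markers, 3 passed the filter on low values, with 1 higher and 1 lower in both knockout libraries. Rgs13 was at 0 in all 4 libraries. The part of these other cells in the levels below was not tested.

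The members had low levels. Their mean over the 4 libraries ran from 0.835 to 62.5 FPKM for replication genes (median 5.81). For mitotic genes it ran from 0.47 to 13.9 FPKM (median 3.24). The median over all genes tested was 12.98 FPKM, while the member medians include Cdc6, Cenpe and Kif11, which were too low to be tested. Of the 42, 9 were below 2 FPKM, and 3 (Pcna, Mcm7 and Cdc20) were above 10. None was at 0 in any library. A library held 20 to 1229 reads of a member (median 127.5), as recovered from the FPKM values, so counting error alone is sizeable for the lowest of them. The plot of all members by library shows the order of the levels, with Pcna on top and Cenpe at the bottom.

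**Figure D1:**
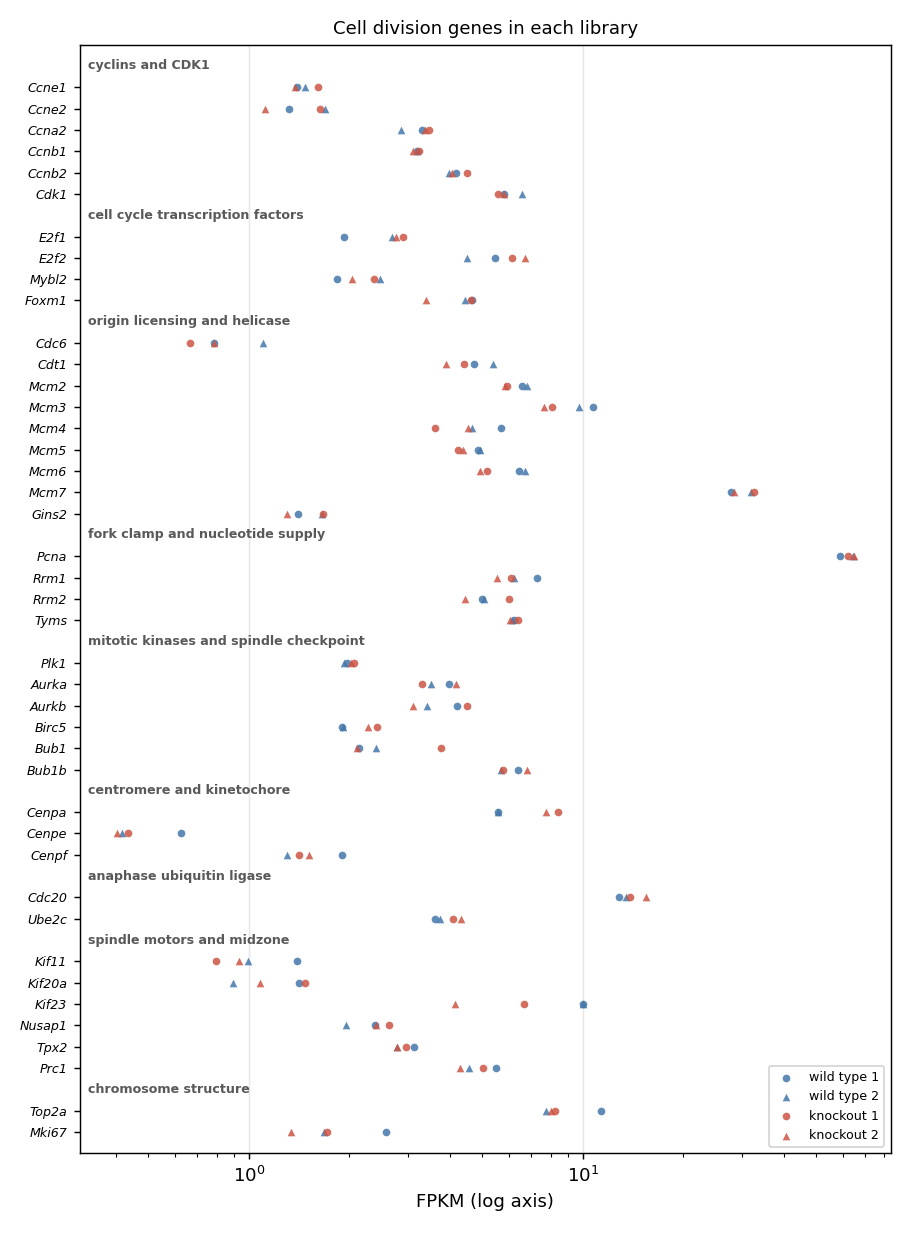
Level of each of the 42 cell division genes in each library, in FPKM on a log axis, grouped by role. Blue symbols are wild-type libraries, red symbols are knockout libraries, and circles and triangles are replicates 1 and 2. Symbols of both colours lie close together for most genes, and Kif23 and Cenpa have the most negative and the most positive fold change.

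No cell division gene passed the test between the genotypes. With limma on log2(FPKM + 1) and adjustment over 13147 genes, 0 of the 39 members tested had an adjusted p under 0.05, and Cdc6, Cenpe and Kif11 were too low to be tested. Over all genes tested the same rule called 15, or 0.114%, so a count of 0 among 39 is also what the background share gives. At an unadjusted p under 0.05, Cenpa was higher and Kif23, Mcm3 and Mcm6 were lower in knockout tumours. That is 1 of 39 members higher and 3 lower, against 8.36% and 7.01% of all genes tested, and 15.4% in either direction. The median log2 fold change was 0.00 for the members and 0.00 for all genes, with 19 members above 0 and 20 below. Both knockout libraries lay above both wild-type libraries for 9 members and below them for 9, against 22.7% higher, 25.4% lower and 48.1% in either direction over all genes tested.

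The width of the intervals shows how much change the data would have allowed. For 38 of the 39 members the 95% interval of the log2 fold change lay within 1 of 0, and this held for 91.5% of all genes tested. Kif23 was the exception. The median distance from a member's fold change to the end of its interval was 0.35 on the log2 scale. Since the scale adds 1 to each FPKM, it understates the changes of the lowest genes. With limma-voom on the recovered reads, which lacks that shrinkage, 36 of the 39 intervals lay within 1 of 0. The absolute log2 fold change was under 0.2 for 28 members, against 62.1% of all genes tested.

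**Figure D2:**
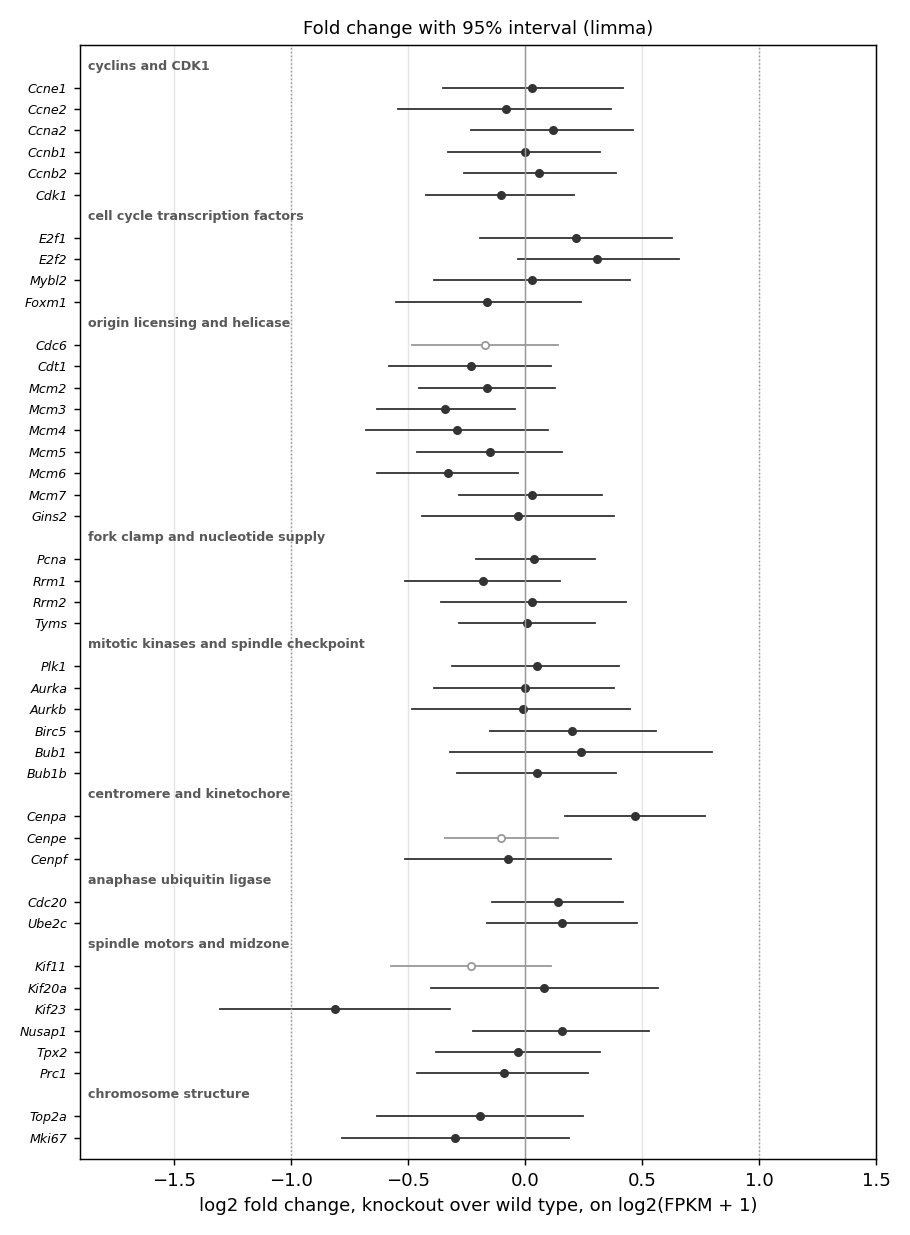
Log2 fold change of knockout over wild type for each of the 42 genes on the log2(FPKM + 1) scale, with bars for the 95% interval from limma. Open grey symbols are Cdc6, Cenpe and Kif11, which were fitted without the filter on low values, and dotted lines mark 1 and -1. Most bars cross 0, and the bars of Kif23, Mcm3, Mcm6 and Cenpa do not.

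The replication set and the mitotic set are known to be switched on through different promoter elements, and 6 promoters are printed as examples of these elements and of members without them. Mitotic genes often carry the cell cycle homology region, TTTGAA or TTTAAA, close to their start, together with CCAAT boxes bound by NF-Y. Replication genes often carry E2F letters, searched here as TTGGCGC or TTCGCGC or TTCCCGC or TTGCCGC. The windows are the 250 bases upstream of the RefSeq start on GRCm38.p6, 5′ to 3′ on the gene's strand, with any of these letters on either strand in capitals. Shown are the 3 replication genes and the 3 mitotic genes with the highest mean FPKM, leaving out Pcna and Mcm7, whose windows overlap annotated untranslated exons by more than 30 bases.
Mcm3 (chr1:20820313-20820562, minus strand): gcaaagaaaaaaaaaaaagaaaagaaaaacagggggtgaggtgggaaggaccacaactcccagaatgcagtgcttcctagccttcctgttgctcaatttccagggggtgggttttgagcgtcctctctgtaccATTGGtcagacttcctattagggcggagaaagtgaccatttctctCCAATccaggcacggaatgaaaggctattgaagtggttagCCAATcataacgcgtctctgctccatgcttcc
Mcm2 (chr6:88898781-88899030, minus strand): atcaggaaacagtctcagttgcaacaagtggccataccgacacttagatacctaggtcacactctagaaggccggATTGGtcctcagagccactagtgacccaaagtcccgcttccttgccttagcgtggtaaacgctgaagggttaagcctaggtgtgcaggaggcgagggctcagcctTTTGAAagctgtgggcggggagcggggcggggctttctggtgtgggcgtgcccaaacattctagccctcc
Rrm1 (chr7:102441445-102441694, plus strand): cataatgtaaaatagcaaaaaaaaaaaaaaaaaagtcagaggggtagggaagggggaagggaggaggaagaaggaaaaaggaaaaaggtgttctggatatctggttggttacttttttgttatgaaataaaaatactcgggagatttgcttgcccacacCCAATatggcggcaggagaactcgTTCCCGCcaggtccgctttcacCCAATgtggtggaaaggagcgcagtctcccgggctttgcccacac
Cdc20 (chr4:118437344-118437593, minus strand): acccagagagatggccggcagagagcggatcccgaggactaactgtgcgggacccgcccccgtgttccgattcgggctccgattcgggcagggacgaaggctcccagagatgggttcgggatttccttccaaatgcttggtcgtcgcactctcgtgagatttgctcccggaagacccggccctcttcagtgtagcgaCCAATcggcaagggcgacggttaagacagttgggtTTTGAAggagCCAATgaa
Top2a (chr11:99024190-99024439, minus strand): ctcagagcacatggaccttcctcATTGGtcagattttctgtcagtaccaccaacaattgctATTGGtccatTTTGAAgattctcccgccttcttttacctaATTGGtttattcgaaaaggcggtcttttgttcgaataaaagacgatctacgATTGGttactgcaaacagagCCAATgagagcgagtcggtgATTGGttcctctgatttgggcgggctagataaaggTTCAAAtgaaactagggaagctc
Kif23 (chr9:61946800-61947049, minus strand): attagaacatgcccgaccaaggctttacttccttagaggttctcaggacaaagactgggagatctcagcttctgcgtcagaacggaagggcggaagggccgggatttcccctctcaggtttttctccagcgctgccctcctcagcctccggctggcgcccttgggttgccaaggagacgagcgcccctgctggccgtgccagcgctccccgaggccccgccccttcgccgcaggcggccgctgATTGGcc
Cdc20 holds the homology region letters 12 bases before its start. Top2a holds them in 2 places, the nearer 17 bases before the start, and CCAAT letters 6 times. In Mcm2, a replication gene, the homology region letters lie 64 bases before the start. Mcm3 has CCAAT letters 3 times and neither of the other elements, while Rrm1 holds E2F letters. The window of Kif23 has CCAAT letters in a single place and no other capitals.

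Of the 42 members, 34 matched a RefSeq promoter, with 37 windows. The homology region letters were in 13 of 20 windows of mitotic genes (65.0%) and in 2 of 12 windows of replication genes (16.7%), against 25.2% of all 32851 windows. CCAAT was in 18 of 20 mitotic windows (90.0%) and 9 of 12 replication windows (75.0%), against 33.8% of all windows. E2F letters showed the opposite order, with 3 of 20 mitotic windows (15.0%), 7 of 12 replication windows (58.3%) and 7.89% of all windows. The homology region and CCAAT stood together in 60.0% of mitotic windows, 16.7% of replication windows and 8.78% of all windows. These are matches of letters, not sites shown to be bound.

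No gene of origin licensing or the replicative helicase passed the test, and their log2 fold changes ran from -0.34 to 0.03. MCM2 to MCM7 form the ring that unwinds DNA at the fork, Cdc6 and Cdt1 load it, and Gins2 encodes a subunit of the complex that activates it. Of 8 tested members of this group, 0 were called (0.114% of all genes tested). In both knockout libraries 6 lay lower and 0 higher, against 25.4% and 22.7% of all genes tested, with a median log2 fold change of -0.20. Mcm3 (chromosome 1, 20802968 to 20820312) was at 10.7 and 9.71 FPKM in wild type 1 and 2 and at 8.1 and 7.67 FPKM in knockout 1 and 2. Its knockout mean was 77.1% of the wild-type mean, and its log2 fold change of -0.34 ± 0.12 (SE) had a limma unadjusted p of 0.0305 and an adjusted p of 0.28. Mcm6 (chromosome 1, 128331590 to 128359664) was at 6.46 and 6.7 FPKM in wild type and at 5.16 and 4.92 FPKM in knockout, with a limma adjusted p of 0.294. For both genes the replicates were closer to each other than to the other genotype, but neither difference passed the adjustment.

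The fold changes of Mcm2, Mcm4 and Mcm5 had the same direction and were smaller. Mcm2 was at 6.59 and 6.8 FPKM in wild type and 5.94 and 5.83 FPKM in knockout, and Mcm5 was at 4.86 and 4.93 against 4.24 and 4.38 FPKM. In Mcm4, with 5.7 and 4.67 FPKM in wild type and 3.61 and 4.52 FPKM in knockout, the replicates differed from each other almost as much as the genotypes did. Mcm7 alone among the ring genes overlapped between genotypes, at 27.7 and 31.9 FPKM in wild type and 32.5 and 28.3 FPKM in knockout. It also stood several times above its partners. Mcm7 shares 557 of 4426 exon bases with neighbours that include Ap4m1 and the microRNA genes Mir25 and Mir93, so reads of those genes may be counted in it. Cdt1 was at 4.72 and 5.4 FPKM in wild type and 4.42 and 3.89 FPKM in knockout. Cdc6, below the filter, was at 0.787 and 1.1 against 0.667 and 0.785 FPKM, and Gins2, at 1.4 and 1.65 against 1.67 and 1.3 FPKM, overlapped. Gins2 shares 2758 of 4097 exon bases with Gse1.

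At the fork and in nucleotide supply, 3 of 4 genes overlapped between the genotypes, and 48.1% of all genes tested did not overlap. None of the 4 was called (0.114% of all genes tested). Pcna, the sliding clamp and the highest member, was at 59.03 and 64.3 FPKM in wild type and 62.2 and 64.7 FPKM in knockout (log2 fold change 0.04 ± 0.10, SE). Its 95% interval, -0.21 to 0.30, was among the narrowest of the set. Rrm2, the small subunit of ribonucleotide reductase that is made in S phase, was at 5.0 and 5.06 FPKM in wild type and 6.02 and 4.43 FPKM in knockout, so the wild-type values lay between the knockout values. Its partner Rrm1, the large subunit, was at 7.27 and 6.23 against 6.11 and 5.52 FPKM and lay lower in both knockout libraries, with a limma adjusted p of 0.566. Tyms, which makes thymidylate, stood at 6.21 and 6.14 FPKM in wild type and 6.4 and 6.06 FPKM in knockout. Pcna and Tyms have annotated pseudogenes, as have Ccnb1 and Ccnb2, and how reads shared with them were counted is not given in the sources used here.

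No cyclin gene passed the test, nor did that of the mitotic kinase CDK1, and their log2 fold changes ran from -0.10 to 0.12. Ccne1 and Ccne2, whose proteins drive entry into S phase, stayed between 1.12 and 1.69 FPKM in all 4 libraries. Ccna2, active through S phase and G2, was at 3.3 and 2.85 FPKM in wild type and 3.46 and 3.36 FPKM in knockout. Ccnb1, the cyclin of mitotic entry, was at 3.18 FPKM in both wild-type libraries and at 3.24 and 3.1 FPKM in knockout (log2 fold change 0.00 ± 0.14, SE). Ccnb2 was at 4.16 and 3.98 against 4.51 and 4.07 FPKM, and Cdk1 at 5.81 and 6.58 against 5.56 and 5.8 FPKM. For the B cyclins the genotypes overlapped, and for Cdk1 both knockout values lay just under the lower wild-type value.

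Of 4 transcription factors, the 2 activating E2F genes lay higher in both knockout libraries, against 22.7% of all genes tested. None of the 4 lay lower in both, and none passed the test. E2f2 was at 5.45 and 4.51 FPKM in wild type and 6.12 and 6.72 FPKM in knockout (log2 fold change 0.31 ± 0.14, SE, limma adjusted p = 0.365). E2f1 was at 1.93 and 2.68 FPKM in wild type and 2.9 and 2.76 FPKM in knockout. E2f2 is also abundant in red cell precursors, whose markers were likewise higher in both knockout libraries, and the part of such cells was not tested. Mybl2 (1.83 and 2.47 against 2.37 and 2.03 FPKM) and Foxm1 (4.65 and 4.43 against 4.62 and 3.4 FPKM), the activators of mitotic genes, overlapped between genotypes.

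Of 6 mitotic kinases and checkpoint genes, 0 were called (0.114% of all genes tested). Plk1 and Birc5 lay higher in both knockout libraries, and 2 of 6 is close to the 22.7% of all genes tested that did. Plk1, a kinase needed from mitotic entry to cytokinesis, was at 1.97 and 1.93 FPKM in wild type and 2.07 and 2.02 FPKM in knockout. Aurka, the kinase of spindle poles, was at 3.96 and 3.5 against 3.29 and 4.18 FPKM. Aurkb and Birc5 (survivin) belong to the chromosomal passenger complex, which corrects faulty attachments of chromosomes. Aurkb was at 4.21 and 3.41 FPKM in wild type and 4.49 and 3.11 FPKM in knockout, with the extreme values both in knockout libraries. Birc5 was at 1.9 and 1.91 against 2.42 and 2.27 FPKM, which put both knockout libraries above wild type (limma adjusted p = 0.552). Of the spindle checkpoint genes, Bub1 was at 2.13 and 2.4 against 3.77 and 2.1 FPKM, and Bub1b at 6.39 and 5.67 against 5.77 and 6.81 FPKM. The high Bub1 value belonged to knockout 1 alone.

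At the centromere, Cenpa held the most positive fold change of all members. It encodes the histone H3 variant that marks centromeres (chromosome 5, 30666777 to 30674830). Its level was 5.56 and 5.58 FPKM in wild type 1 and 2 and 8.43 and 7.78 FPKM in knockout 1 and 2, from 118 to 151 reads per library. The knockout mean was 1.46 times the wild-type mean, and the log2 fold change of 0.47 ± 0.12 (SE, 95% interval 0.17 to 0.77) had a limma unadjusted p of 0.00789 and an adjusted p of 0.193. Within each genotype the replicates agreed within sampling noise, with read ratios of 0.996 (exact 95% interval 0.766 to 1.30) in wild type and 1.08 (0.851 to 1.38) in knockout. For the kinetochore genes Cenpe, a motor, and Cenpf, the genotypes overlapped. Cenpe was at 0.626 and 0.416 against 0.434 and 0.402 FPKM, and Cenpf at 1.9 and 1.3 against 1.41 and 1.51 FPKM.

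The spindle midzone held the largest difference of the set, that of Kif23. Kif23 (chromosome 9, 61915905 to 61946774) encodes MKLP1, the motor subunit of centralspindlin, which bundles microtubules between the separating chromosomes and sets the site of cytokinesis. It was at 10.02 and 9.98 FPKM in wild type 1 and 2 and at 6.66 and 4.13 FPKM in knockout 1 and 2, from 743, 725, 410 and 239 reads. The wild-type libraries agreed closely, while the knockout libraries differed from each other by a read ratio of 1.61 (exact 95% interval 1.37 to 1.90). The knockout mean was 53.98% of the wild-type mean, with a log2 fold change of -0.81 ± 0.20 (SE, 95% interval -1.30 to -0.32, limma unadjusted p = 0.00671, adjusted p = 0.185). Without knockout 1 the fold change was -1.10 and passed the test (limma adjusted p = 0.0211), and without knockout 2 it was -0.52 (adjusted p = 0.293). Leaving out knockout 1 raised the calls over all genes from 15 to 252, and the lone knockout library was then assumed to vary like the wild-type ones. Its partners, chosen for comparison after these values were seen, had log2 fold changes of -0.02 and -0.16. Racgap1, the other subunit of centralspindlin, was at 8.63 and 8.13 against 8.33 and 8.15 FPKM, and Ect2, which centralspindlin recruits, at 3.69 and 2.93 against 2.65 and 3.03 FPKM.

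Of the other midzone and spindle genes, Prc1, Kif20a and Tpx2 overlapped between the genotypes. Prc1, which bundles midzone microtubules, was at 5.5 and 4.56 FPKM in wild type and 5.02 and 4.29 FPKM in knockout. Kif20a, another midzone motor, was at 1.41 and 0.899 against 1.47 and 1.08 FPKM. Tpx2, an activator of Aurora A, was at 3.13 and 2.77 against 2.95 and 2.78 FPKM. Nusap1, which stabilises spindle microtubules, stood at 2.39 and 1.95 against 2.63 and 2.41 FPKM and was the only tested member of this group that lay higher in both knockout libraries. Kif11, the motor that pushes spindle poles apart, was at 1.39 and 0.997 against 0.797 and 0.934 FPKM, below the filter. Cdc20 and Ube2c, which serve the ubiquitin ligase that starts anaphase, lay slightly higher in both knockout libraries, as did 22.7% of all genes tested. Cdc20 was at 12.8 and 13.5 against 13.8 and 15.5 FPKM and Ube2c at 3.6 and 3.73 against 4.09 and 4.31 FPKM, with limma adjusted p-values of 0.595 and 0.607.

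The classical proliferation markers overlapped between the genotypes. Mki67, which encodes Ki-67, was at 2.58 and 1.68 FPKM in wild type 1 and 2 and 1.71 and 1.34 FPKM in knockout 1 and 2. Wild type 1 stood above the other libraries, and wild type 2 lay between the knockout values. The knockout mean was 71.6% of the wild-type mean, and the log2 fold change was -0.30 ± 0.20 (SE, 95% interval -0.78 to 0.19, limma adjusted p = 0.519). It was -0.09 without wild type 1, -0.51 without wild type 2, and -0.46 with limma-voom on the recovered reads, none of them called. Top2a, the topoisomerase that untangles sister DNA, was at 11.3 and 7.75 against 8.23 and 8.03 FPKM. Wild type 1 was again the high library, and without it the log2 fold change of Top2a went from -0.19 to 0.06.

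Set side by side, the median fold change was slightly below 0 for replication genes and close to 0 for mitotic genes. Of 12 tested replication genes, 7 lay lower in both knockout libraries and 0 higher, with a median log2 fold change of -0.16. For the Mcm genes with Pcna and Rrm2, which is 8 genes, the numbers were 5 lower and 0 higher, also with a median of -0.16. Of 21 tested mitotic genes, 7 lay higher and 2 lower, with a median of 0.05, which became -0.06 with quantile normalization. Over all genes tested these shares were 22.7% higher and 25.4% lower around a median of 0.00. Per library, the mean log2(FPKM + 1) of replication genes exceeded that of mitotic genes by 0.83 and 0.96 in wild type 1 and 2 and by 0.75 and 0.77 in knockout 1 and 2. The genotypes did not overlap, and their means differed by -0.14. With a pseudocount of 10 this difference was -0.05, and with genes of at least 5 FPKM it was -0.04. The median of replication genes became -0.06 and -0.07 under the same settings. For the Mcm genes with Pcna and Rrm2 the excess was 1.19 and 1.32 in wild type and 1.08 and 1.13 in knockout, a difference of -0.15. Leaving out wild type 2 brought the difference for all replication genes to -0.07, and leaving out wild type 1 to -0.20. This difference is a score over listed genes and was not tested. An exact two-sided permutation test of 2 libraries against 2 cannot go below p = 0.333.

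**Figure D3:**
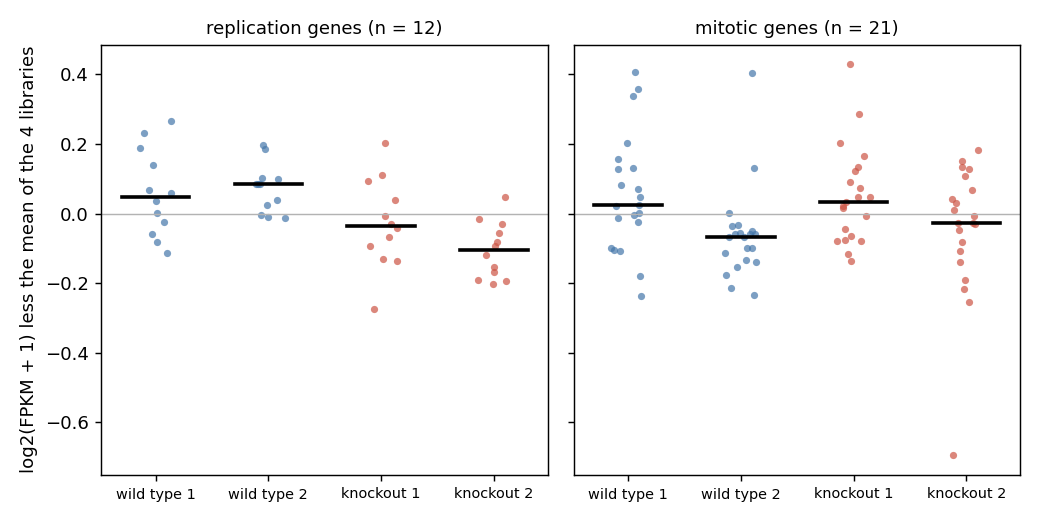
Log2(FPKM + 1) of each gene less its mean over the 4 libraries, for the 12 tested replication genes (left) and the 21 tested mitotic genes (right), 1 point per gene and black bars at the median. Medians for replication genes are 0.05, 0.08, -0.04 and -0.11 from wild type 1 to knockout 2, and for mitotic genes 0.02, -0.07, 0.04 and -0.03. The lowest point, in knockout 2, is Kif23.

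Among replication genes, knockout 2 was the lowest library for 8 of 13 members, and wild type 2 was the lowest for 0. Mitotic genes were ordered otherwise: knockout 1 was the highest library for 10 of 23 and wild type 1 for 8. Wild type 2 was the highest for 1 mitotic gene and the lowest for 9. Wild type 2, the library with the most replication genes at their peak (5 of 13), had the fewest mitotic genes at theirs. The same counts were not made over all genes tested, so the contrast has no background to be set against.

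Fold changes varied with exon length, both between the genotypes and between libraries of the same genotype. Over all genes tested, the median log2 fold change was 0.14 for genes with under 2000 exon bases, 0.02 for 2000 to under 5000 bases and -0.09 for 5000 bases or more. The ratio of wild type 1 to wild type 2 ran the other way, with medians of -0.14, -0.04 and 0.09. For knockout 1 over knockout 2 the medians were 0.03, -0.03 and -0.08. With 2 libraries a genotype, a part of genotype in this relation cannot be told apart from differences between libraries. After the data were seen, the median of genes of like exon length (10 bins of equal size) was subtracted from each fold change. The median became -0.07 for replication genes, -0.13 for the Mcm genes with Pcna and Rrm2, and 0.01 for mitotic genes. Kif23, with 7901 exon bases, went from -0.81 to -0.71 and Mki67, with 10061, from -0.30 to -0.12. Exon bases here are counted over all annotated transcripts of a gene, which need not be the length behind its FPKM. For Kif23 the length behind the recovered reads was another, so its subtraction depends on which length is taken. Mcm3 stayed at -0.34 and Mcm6 went to -0.32. The cause of the relation to length was not tested.

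Replicates of the same genotype also differed by more than counting error in some of these genes. Between wild type 1 and wild type 2, the exact 95% interval of the read ratio excluded 1 for 12 of the 42 members. The mitotic genes among them numbered 6, and wild type 1 was the higher in each, by ratios from 1.39 to 1.57. These were Mki67, at 1.53 (1.34 to 1.76), Top2a, at 1.46 (1.25 to 1.71), Cenpf, Cenpe, Kif11 and Kif20a. No mitotic gene had an interval below 1. On the replication side, Mcm4 and Rrm1 were higher and Mcm7 and Pcna lower in wild type 1, with a median ratio of 0.97 over the 13 genes against 1.13 over the 23 mitotic genes. Between knockout 1 and knockout 2 the interval excluded 1 for 7 members, among them Kif23, Bub1, at 1.79 (1.23 to 2.64), Foxm1 and Mki67, and knockout 1 was the higher for 30 of 42. These intervals cover counting error only, and reads carry no molecular identifiers. The same counts were not made over all genes, so these differences are not shown to be particular to cell division genes. Of the 6 mitotic genes with intervals above 1 in the wild-type pair, all but Kif20a have 5000 exon bases or more, counted over all annotated transcripts. So has Rrm1, but not Mcm4. For Kif11 and Rrm1, however, the length behind the recovered reads was an annotated one under 5000 bases. Genes with 5000 exon bases or more as a whole stood higher in wild type 1, by a median of 0.09 on the log2 scale. Kif20a, with the highest ratio and 4338 exon bases, is in the middle class, whose median was -0.04. Kif23, with 7901 exon bases by the same count, had a ratio of 1.00, and the part of length in these ratios was not tested.

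**Figure D4:**
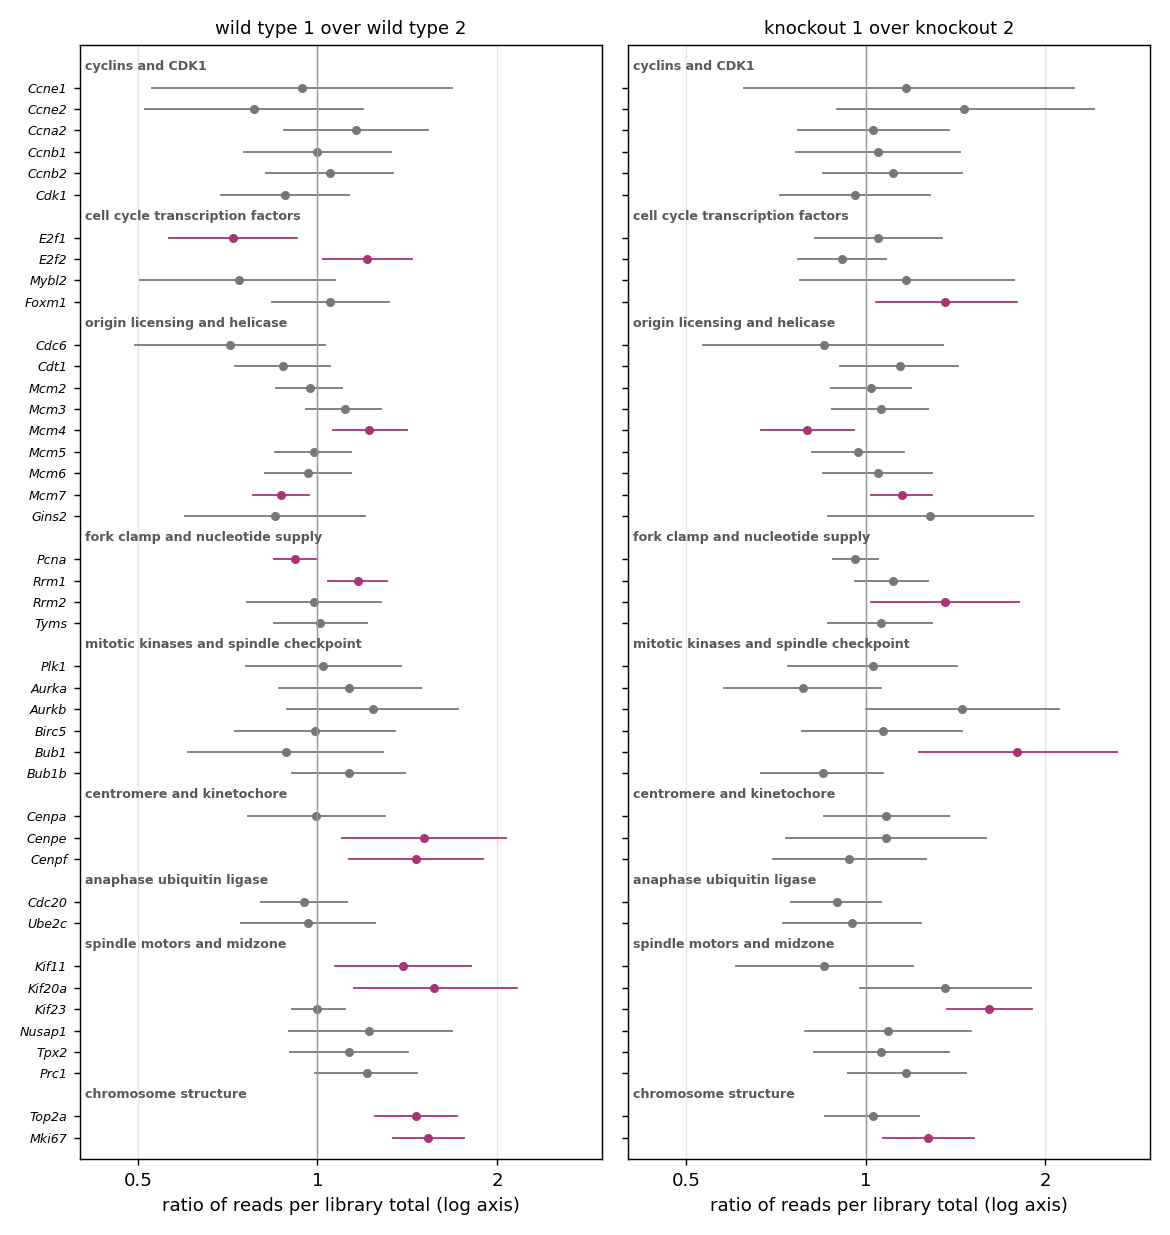
Ratio of reads, scaled by library total, between the replicates of each genotype for the 42 genes, on a log axis, with exact 95% counting intervals. Purple marks intervals that exclude 1, for 12 genes in wild type (left) and 7 in knockout (right). In wild type the ratios of Mki67, Top2a, Cenpe, Cenpf, Kif11 and Kif20a lie above 1, and in knockout those of Kif23 and Bub1 are the farthest above it.

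Around the members, 107 other genes of the same pathways were read from 4 lists. Of 92 tested, 0 passed the limma test (0.114% of all genes tested). At an unadjusted p under 0.05, 4 were higher and 3 lower, against 8.36% and 7.01% of all genes tested, and the median log2 fold change was -0.01. Of the inhibitors of cyclin-dependent kinases, 5 of 7 lay higher in both knockout libraries and 0 lower, against 22.7% and 25.4% of all genes tested, with a median of 0.22. At an unadjusted p under 0.05, 3 of the 7 were higher, against 8.36% of all genes tested. The most positive of them was Cdkn1a, which encodes p21, at 72.3 and 77.1 FPKM in wild type and 109 and 148 FPKM in knockout (log2 fold change 0.76 ± 0.16, SE, limma adjusted p = 0.158). Cdkn1c, the lowest by fold change, was at 2.95 and 3.84 against 3.49 and 2.82 FPKM. Among 19 tested G1 cyclins, kinases and pocket proteins, 6 lay higher and 7 lower, against 22.7% and 25.4% of all genes tested. Ccnd1, cyclin D1, was the most negative there, at 214 and 201 FPKM in wild type and 177 and 144 FPKM in knockout (limma adjusted p = 0.284). Rb1, the retinoblastoma protein that holds E2F factors in check, was the most positive, at 14.5 and 11.1 against 14.6 and 17.4 FPKM.

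Of 34 other genes of the replication machinery tested, 7 lay higher and 7 lower, near the 22.7% and 25.4% of all genes tested, with a median of -0.01. Tk1, thymidine kinase, was the most positive, at 8.92 and 10.8 FPKM in wild type and 15.3 and 15.4 FPKM in knockout (log2 fold change 0.60 ± 0.13, SE, limma adjusted p = 0.158). Lig1, the ligase that joins Okazaki fragments, was the most negative, at 6.68 and 7.6 against 5.67 and 5.36 FPKM. Of 32 other mitotic genes tested, 5 lay higher and 4 lower, both below those shares of all genes, also with a median of -0.01. Espl1, the protease separase, was at 1.2 and 0.896 against 1.23 and 2.38 FPKM, and Kif2c, a kinesin that removes tubulin from microtubule ends, at 3.16 and 2.26 against 1.62 and 1.83 FPKM.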

How the data were processed

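RNA was sequenced from 2 wild-type and 2 Nrf2 knockout lung tumour samples, grouped by title and genotype label. The authors deposited FPKM per gene, as the values show. The submitters' processing notes name TopHat2, DESeq2 and mm10 and no more. Which counter, annotation and gene lengths were used, and whether strand was, is not stated in the sources used here, and 12 members share exon bases with another gene. Of 35275 identifiers, 34490 matched a symbol of GENCODE M21 on GRCm38, the same assembly as mm10. Coordinates count from 1.

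Whole reads were recovered for all 21601 genes above 0, within 0.0002 reads plus 2e-08 per read. The length that gave whole reads was an annotated one for 5488 genes. For 16113 genes, 38 of the 42 members among them, it was the smallest that did, so their reads could be undercounted and their counting intervals too wide. The recovered reads sum to 21.37, 20.93, 17.74 and 16.67 M.

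The 13147 genes that reached 1 FPKM in 2 libraries were fitted on log2(FPKM + 1) by limma 3.58.1 (R 4.3.3), with a variance trend, 2 residual and 4.12 prior degrees of freedom, and Benjamini-Hochberg adjustment over all of them. The fit was tested on simulated data. The labels do not say whether the libraries come from separate animals, though the series' design refers to 2 mice of each genotype, and p-values measure the spread between these samples.

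The members and gene lists were chosen with earlier results of these data known. All 42 members are named, as are Nfe2l2 and, of each other pathway list, the genes with the most positive and most negative fold change at a mean of at least 1 FPKM. Racgap1 and Ect2 were added after their values were seen. Alternatives were quantile normalization, pseudocounts of 0.1 and 10, no filter, an FPKM of at least 5, no trend, a replicate block, each library left out in turn, and limma-voom on the recovered reads. A crossed block and the subtraction by exon length were added after the data were seen.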

Additional observations from a re-analysis of the deposited data

How the results depend on the processing

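Members called numbered 0 in every alternative except 2: Kif23 was called without knockout 1 and with a crossed block, so that leaving out a library gave 0 to 1. With the replicate number as a block, 0 members and 69 genes in all were called, against 15 without it. The numbers do not pair the libraries by any label, and same-numbered libraries deviated in opposite directions (r = -0.306 across genes, which are not independent). Crossed pairing, added after seeing the data, called 848 genes and 1 member. Over all genes, 1 was called with no filter, 8 with limma-voom on recovered reads, and 10 to 252 when a library was left out, with 252 without knockout 1 and 55 without knockout 2. A genotype left with a lone library was assumed to vary like the other. Medians over members, on the log2 scale, moved as follows. Quantile normalization gave -0.08 for all members, -0.19 for the Mcm genes with Pcna and Rrm2 and -0.06 for mitotic genes. A pseudocount of 10, which shrinks low genes, gave -0.06 for replication genes and for the Mcm genes with Pcna and Rrm2, and -0.05 for replication minus mitotic level. An FPKM of at least 5, which left out 23 members, gave -0.07 for replication genes and for the Mcm genes with Pcna and Rrm2, -0.09 for mitotic genes and -0.04 for replication minus mitotic level. For the Mcm genes with Pcna and Rrm2, a pseudocount of 0.1 and limma-voom each gave -0.18. Subtracting by exon length gave -0.07 for replication genes and -0.13 for the Mcm genes with Pcna and Rrm2. Leaving out a library gave -0.06 to 0.04 for all members, -0.16 to -0.13 for replication genes, -0.16 to -0.14 for the Mcm genes with Pcna and Rrm2, -0.03 to 0.10 for mitotic genes and -0.20 to -0.07 for replication minus mitotic level.

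Of 39 single members, 20 changed sign in some alternative, all with fold changes no larger than 0.24 on the log2 scale, and 18 changed neither sign nor call. Quantile normalization turned Ccne1 to -0.09, Mybl2 to -0.06, Tyms to -0.02, Plk1 to -0.06 and Kif20a to -0.05, and a pseudocount of 10 gave 0.00 for Aurka. When a library was left out, the log2 fold change ranged from -0.04 to 0.10 for Ccne1, -0.24 to 0.07 for Ccne2, -0.03 to 0.02 for Ccnb1, -0.12 to 0.18 for Mybl2, -0.33 to 0.02 for Foxm1, -0.07 to 0.13 for Mcm7, -0.13 to 0.08 for Gins2, -0.02 to 0.10 for Pcna, -0.15 to 0.22 for Rrm2 and -0.02 to 0.04 for Tyms. It ranged from -0.14 to 0.13 for Aurka, -0.22 to 0.20 for Aurkb, -0.07 to 0.55 for Bub1, -0.05 to 0.15 for Bub1b, -0.24 to 0.10 for Cenpf, -0.09 to 0.25 for Kif20a, -0.10 to 0.04 for Tpx2, -0.20 to 0.02 for Prc1, -0.43 to 0.06 for Top2a and -1.10 to -0.52 for Kif23. Except where a setting's own construction is named, the cause was not tested. With 2 libraries a genotype and a median of 127.5 reads per member and library, the 95% interval of a member reached a median of 0.35 to either side of its log2 fold change. Passing the adjusted test took more than that: Cenpa at 0.47 and Kif23 at -0.81 were not called.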
